A study of Homo sapiens with 6 samples.

Results

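The genes described here are the Wnt ligands, their Frizzled and LRP receptors, the secreted DKK and SFRP antagonists and the core proteins that pass the signal to the nucleus. They were taken by gene name, as all probes whose platform annotation names 1 gene of the WNT, FZD, DKK or SFRP families or 1 of 16 listed pathway genes. The rule found 63 probes for 53 genes, among 31741 probes and 18336 named genes on the array. All 53 human genes that the rule can name were measured, 43 of them by 1 probe and 10 by 2 probes. The study compared 3 drug flasks (drug 1, 3 and 4) with 3 control flasks (control 2, 5 and 6) of cells labelled NCI-H446, derived from a small cell lung cancer, on single-colour arrays with 1 array per flask. The drug flasks received a chemotherapy drug that the labels leave unnamed, and neither its dose nor its exposure time is stated. The control flasks received 15 µl of DMSO, a common drug solvent. No DMSO volume is listed for the drug flasks, so a matched solvent dose cannot be assumed. The source names of some samples carry other line numbers or volumes than their listed characteristics, and the characteristics were followed. All flasks are of 1 line, so the values describe these cells only.

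Wnt proteins are secreted glycoproteins that need a lipid, added by the acyltransferase PORCN, to bind Frizzled receptors. In the canonical branch, a Wnt joins a Frizzled to the coreceptor LRP5 or LRP6, Dishevelled proteins are recruited, and the AXIN and APC complex stops marking β-catenin for destruction, so that β-catenin can act with TCF/LEF factors on target genes. Other branches run through receptors such as ROR and RYK without β-catenin. SFRP proteins bind Wnts outside the cell, DKK1 blocks LRP5 and LRP6, and RNF43 and ZNRF3 remove Frizzleds from the surface. In small cell lung cancer, Wnt activity has been linked with chemotherapy resistance.

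Array medians of the deposited intensities ran from 421 to 476 on the drug arrays and from 376 to 439 on the control arrays, and with arrays it is the number per group, 3, that limits the precision. Values are log2 of the quantile-normalized intensity plus 1, and a fold change is drug minus control on that scale. A group mean under 6.86, the lower quartile of all probes, is called dim. Levels of different genes come from different probes and are not compared with each other. Of the neuroendocrine markers that define the labelled cell type, UCHL1, INSM1 and ENO2 lay above that quartile in both groups, and NEUROD1, GRP and ELAVL4 were dim in both. The mean level of 13 such markers was 9.39 to 9.56 on the drug arrays and 8.77 to 8.78 on the control arrays, and 4 of the 13 rose and 0 fell (30.8%, against 35.1% of all genes). NCAM1, an adhesion molecule, had much the largest rise at 5.08, and the median log2 fold change of the list was 0.278. Of 3 markers of other small cell subtypes, YAP1 fell by 2.48 on the log2 scale, and POU2F3 (-0.15) and REST (-0.03) did not pass. YAP1 averaged 11.76 on the drug arrays and 14.23 on the control arrays, both above 10.96, the upper quartile of all probes. In a list of blood cell markers 2 of 7 rose and 0 fell (28.6%, against 35.1% of all genes), with HBA1 up by 1.77 and CD14 by 0.76. The mean level of that list was 8.02 to 8.06 on the drug arrays and 7.75 to 7.77 on the control arrays. PTPRC, CD3E and LYZ were dim in both groups, while HBA1, CD14, HBB and CD68 lay above the dim level in both. In a list of fibroblast and endothelial markers 1 of 10, COL1A1, fell and 0 rose (10.0%, against 35.1% of all genes). COL1A1 averaged 12.69 on the drug arrays and 14.81 on the control arrays, also above the upper quartile in this list. The mean level of this list was 8.09 to 8.31 on the drug arrays and 8.35 to 8.50 on the control arrays. PDGFRB, VWF, LUM and others, 8 of the 10, lay above the dim level in at least 1 group. COL3A1 and DCN were dim in both groups. The part of these marker differences in the results below was not tested.

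Of the 53 Wnt pathway genes, 12 rose and 6 fell with the drug at an adjusted p below 0.05, where each gene is represented by its brightest probe. SFRP1, FZD4, DKK2, DKK3, WNT11 and LRP6 had the largest rises, and WNT3, WNT5B and FZD6 the largest falls. The 18 called genes are 34.0% of the 53, against 35.1% of all genes measured, a share near the background. The rises made up 22.6% of the members, against 17.6% of all genes, and the falls 11.3%, against 17.5% of all genes. That background split depends on the scaling: of all called genes 50.1% were higher, against 41.6% with median centring, where 2326 genes and 9 members were higher and 3265 genes and 5 members lower. At least 2-fold changes were called in 11 of the 53 members (8 higher, 3 lower), against 2879 of 18336 genes, or 15.7% (1470 higher, 1409 lower). The median log2 fold change was 0.071 over the members and 0.008 over all genes, and the median absolute change was 0.259 and 0.325. By probe, 21 of 63 passed (14 higher, 7 lower), against 31.5% of all probes. The drug arrays lay wholly above or wholly below the control arrays for 24 of the 53 genes (45.3%), against 47.0% of all genes. RNA came from whole flasks, so fewer cells expressing a gene and less RNA per cell cannot be told apart.

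Promoter sequences are shown for 3 called members. FZD4 and WNT3 had the largest rise and the largest fall among called members with an entry in the RefSeq promoter table that were not dim in either group. DKK1 was the only member of 38 with an entry whose first listed window held a TCF/LEF core motif. Each sequence is the 250 bases before the annotated start, 5′ to 3′ on the gene's strand, from RefSeq on GRCh38.p14. They lie at chr11:86955396-86955645 (minus strand, FZD4), chr17:46818693-46818942 (minus strand, WNT3) and chr10:52314031-52314280 (plus strand, DKK1). Capitals mark 2 motifs searched on both strands: the TCF/LEF core (written CTTTGAA, or else CTTTGAT, or else CTTTGTA, or else CTTTGTT) and the GC box (GGGCGG). No TCF/LEF core overlapped a GC box in these windows, and the first pair of GC boxes of FZD4 share a base.
FZD4: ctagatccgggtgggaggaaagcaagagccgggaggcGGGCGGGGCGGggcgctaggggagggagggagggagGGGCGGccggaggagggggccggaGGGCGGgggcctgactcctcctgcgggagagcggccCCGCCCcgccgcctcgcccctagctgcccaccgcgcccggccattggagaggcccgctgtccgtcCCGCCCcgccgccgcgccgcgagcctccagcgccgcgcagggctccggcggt
WNT3: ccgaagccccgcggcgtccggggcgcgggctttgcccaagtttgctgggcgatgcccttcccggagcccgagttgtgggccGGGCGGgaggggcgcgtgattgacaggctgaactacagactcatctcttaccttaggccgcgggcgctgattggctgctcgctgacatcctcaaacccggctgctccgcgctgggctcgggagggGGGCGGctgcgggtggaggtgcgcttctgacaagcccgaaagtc
DKK1: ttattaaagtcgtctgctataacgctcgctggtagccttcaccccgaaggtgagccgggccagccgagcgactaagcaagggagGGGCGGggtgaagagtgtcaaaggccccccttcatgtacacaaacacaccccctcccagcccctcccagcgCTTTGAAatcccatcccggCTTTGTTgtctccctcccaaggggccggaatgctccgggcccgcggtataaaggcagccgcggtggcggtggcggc
The DKK1 window held the TCF/LEF core as CTTTGAA from base -95 and as CTTTGTT from base -76, counted back from the start, and 1 GC box. The FZD4 window held 6 GC boxes and the WNT3 window 2, and neither held a TCF/LEF core. Over all 35116 promoters of the same length, 12.0% held a TCF/LEF core and 42.6% a GC box. Among the 38 members 2.6% and 84.2% did. Member values rest on the first listed window of each gene, and the background on every window, so they are not counted alike. Some member windows, such as those of LRP5 and WNT5A, lie at a start inside the gene. The median GC content was 71.4% over the 38 members and 58.0% over all promoters. Among the 5 members with an entry that rose, 5 held a GC box, and among the 5 that fell, 4 did. Of the 28 that were not called, 23 (82.1%) held one, so the GC box did not set the called members apart. A match is a description of the letters and not evidence of binding.

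Among the 19 Wnt ligands, 4 rose and 3 fell, 36.8% of the family, a share near the 35.1% of all genes. WNT3, a ligand of the canonical branch, had log2 intensities of 7.37, 7.32 and 7.29 on the drug arrays and 9.57, 9.91 and 9.91 on the control arrays. All 3 drug arrays were lower by over 2 log2 units, and the log2 fold change was -2.47 (SE 0.135, adjusted p = 3.18e-05), a 5.52-fold fall. WNT5A and WNT5B, close paralogs best known for signalling without β-catenin, fell together. WNT5B had 9.75, 9.81 and 9.46 on the drug arrays and 11.10, 11.25 and 11.59 on the control arrays, a log2 fold change of -1.64 (SE 0.172, adjusted p = 0.000415). WNT5A had 8.89, 8.98 and 8.72 on the drug arrays and 9.62, 9.79 and 10.08 on the control arrays, a change of -0.97 (SE 0.157, adjusted p = 0.00285). Its other probe fell by 1.39 on the log2 scale (adjusted p = 0.000113), with 8.15, 8.21 and 8.16 on the drug arrays and 9.58, 9.53 and 9.58 on the control arrays. The groups did not overlap on either WNT5A probe.

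WNT11, another ligand known mainly from non-canonical signalling, moved the other way. Its values were 9.48, 9.13 and 9.08 on the drug arrays and 7.54, 7.58 and 7.46 on the control arrays, and it rose by 1.70 (SE 0.143, adjusted p = 0.000163). WNT6, a ligand active in epithelial tissues, had 7.79, 7.77 and 7.86 on the drug arrays and 6.69, 6.45 and 6.71 on the control arrays. It rose by 1.19 (SE 0.124, adjusted p = 0.000391), its control mean of 6.61 was dim, and the 2.29-fold rise became 1.86-fold with 50 added in place of 1. WNT4, a ligand of kidney and gonad development, had 9.89, 9.76 and 9.33 on the drug arrays and 8.18, 8.52 and 8.72 on the control arrays, a rise of 1.18 (SE 0.202, adjusted p = 0.00363). Its other probe had 9.17, 9.12 and 9.12 on the drug arrays and 8.64, 8.99 and 8.80 on the control arrays, and its 0.33 did not pass (adjusted p = 0.106), so the size of the WNT4 change depends on the probe. WNT7B, a ligand of lung development, had 8.44, 8.64 and 8.22 on the drug arrays and 7.59, 7.92 and 8.05 on the control arrays. The rise of 0.58 (SE 0.172, adjusted p = 0.0392) lost its call without drug 1 (adjusted p = 0.106), drug 3 (0.139), control 2 (0.104) or control 5 (0.0788), with median centring (0.0654) and against a minimum log2 change of 0.5. Its other probe, dim in both groups, did not pass (1.31, adjusted p = 0.187).

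The other 12 ligands did not pass. WNT1, WNT2B, WNT8A, WNT9A and WNT9B were dim in both groups, with differences from -0.34 (WNT8A) to 0.24 (WNT1). Those of WNT2B, WNT8A, WNT9A and WNT9B were negative, but positive with the values as deposited and with median centring (WNT8A 0.30 and 0.17). WNT3A, often used as the model canonical ligand, averaged 7.02 ± 0.211 on the drug arrays and 6.87 ± 0.329 on the control arrays (SD, n = 3 each), a difference of 0.15 (95% confidence interval -0.32 to 0.62). WNT10A and WNT10B differed by 0.15 and 0.06, WNT16 by 0.06, WNT2 by 0.02, WNT7A by 0.00 and WNT8B, dim in the control group, by 0.20. WNT10A and WNT10B are canonical ligands of skin and its appendages, and for WNT10B the interval was -0.37 to 0.50. PORCN, on which the release of Wnts depends, had 12.20, 12.14 and 11.88 on the drug arrays and 11.73, 12.03 and 11.94 on the control arrays, and its 0.18 did not pass (interval -0.16 to 0.52).

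**Figure D1:**
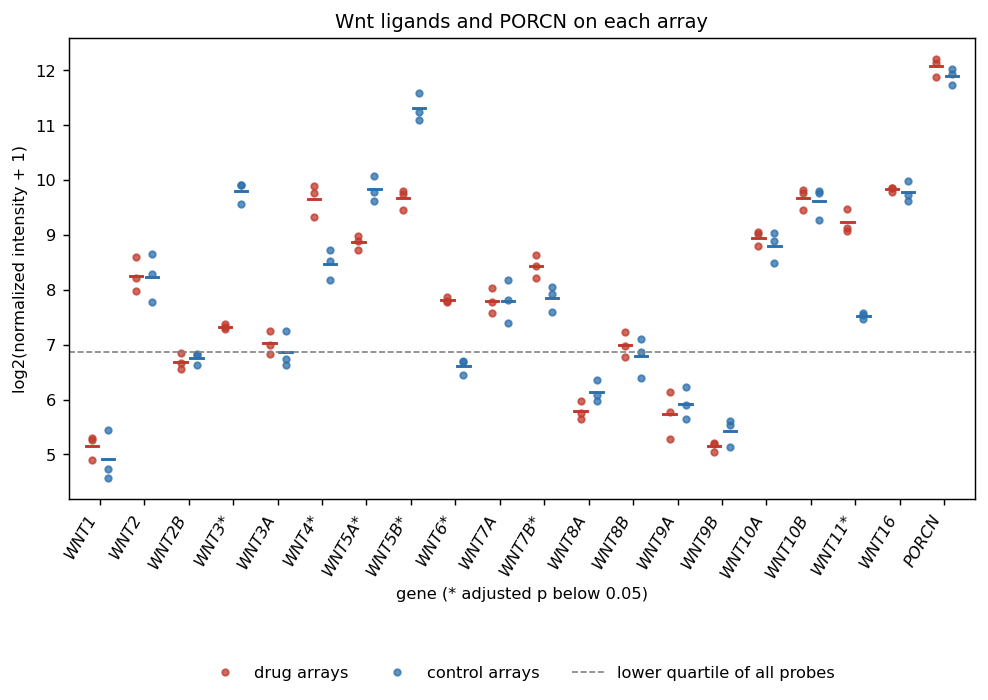
Log2(normalized intensity + 1) of the 19 Wnt ligands and PORCN on each array, with drug arrays (red) left of control arrays (blue), a bar at each group mean and a dashed line at the lower quartile of all probes (6.86). WNT3, WNT5A and WNT5B have their drug arrays wholly below the control arrays, and WNT4, WNT6, WNT7B and WNT11 wholly above.

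Of the 10 Frizzled receptors, 3 rose and 1 fell (40% of the family, against 35.1% of all genes). All 10 were above the dim level in at least 1 group. FZD4, which binds norrin as well as Wnts and is known for retinal vessel growth, had 12.64, 12.63 and 12.34 on the drug arrays and 10.43, 10.68 and 10.51 on the control arrays. The rise of 2.00 (SE 0.139, adjusted p = 7.79e-05) is 4.00-fold, and its promoter is printed above. FZD3, a receptor used in axon guidance and planar polarity, had 7.75, 7.69 and 7.84 on the drug arrays and 6.78, 6.90 and 6.87 on the control arrays, and rose by 0.91 (SE 0.113, adjusted p = 0.000877). Its control mean of 6.85 was just inside the dim range, and the fold was 1.88, or 1.61 with 50 added in place of 1. FZD6, an atypical Frizzled that can restrain β-catenin signalling, had 12.23, 12.12 and 12.26 on the drug arrays and 13.26, 13.28 and 13.26 on the control arrays. It fell by 1.06 (SE 0.109, adjusted p = 0.00038), or 2.09-fold, and the groups did not overlap.

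FZD5, a receptor of eye and gut development, had 10.00, 10.01 and 9.81 on the drug arrays and 9.38, 9.57 and 9.31 on the control arrays. It rose by 0.52 (SE 0.129, adjusted p = 0.0188), but the call was lost without drug 1 (adjusted p = 0.0768), drug 3 (0.0804) or control 2 (0.0548), with median centring (0.0746) and against a minimum log2 change of 0.5. The other FZD5 probe, at 0.50, did not pass (adjusted p = 0.0972), although its drug arrays also lay above the control arrays. FZD2 had 7.76, 7.50 and 7.23 on the drug arrays and 7.90, 8.01 and 8.68 on the control arrays. Its groups did not overlap, but the difference of -0.70 did not pass (adjusted p = 0.0654, interval -1.27 to -0.14). It passed in 3 of 14 alternatives (adjusted p from 0.0377 to 0.0498). FZD1, FZD7, FZD8 and FZD10 had differences from -0.03 (FZD8) to 0.04 (FZD7), and FZD9 had 0.26, none of them past the test. For FZD7, a Frizzled often high in stem cells and tumours, the group means were 9.99 ± 0.0676 on the drug arrays and 9.95 ± 0.114 on the control arrays, and the interval of the difference was -0.25 to 0.32.

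The 2 LRP coreceptors passed in opposite directions. LRP6 had 11.13, 10.99 and 10.84 on the drug arrays and 9.49, 9.58 and 9.61 on the control arrays, a rise of 1.43 (SE 0.125, adjusted p = 0.000196) or 2.69-fold. Its other probe had 10.17, 10.09 and 9.71 on the drug arrays and 8.51, 8.52 and 8.65 on the control arrays, and gave the same 1.43 (adjusted p = 0.000448). Both LRP6 probes thus separated the groups by over 1 log2 unit. LRP5 was dim in both groups, at 5.91, 5.65 and 6.26 on the drug arrays and 6.63, 6.46 and 6.50 on the control arrays, and fell by 0.59 (SE 0.173, adjusted p = 0.0383). That call is weak: it was lost in 9 of 13 alternatives, among them without any array but drug 4 (adjusted p from 0.0761 to 0.126), and with the values as deposited the difference was -0.12 (adjusted p = 0.692).

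Of the 8 DKK and SFRP genes measured, 3 rose and 1 fell, and 4 of the 8 did not pass, where 35.1% of all genes passed. SFRP1, a decoy that binds Wnts outside the cell and is silenced by methylation in many tumours, had the largest change of all 53 members. It had 11.63, 11.59 and 11.60 on the drug arrays and 8.60, 8.79 and 8.63 on the control arrays, a rise of 2.93 (SE 0.114, adjusted p = 1.44e-05) or 7.63-fold. DKK3, a divergent member of its family that does not bind LRP6 the way DKK1 does, had 11.37, 11.36 and 11.37 on the drug arrays and 9.37, 9.33 and 9.45 on the control arrays. The rise of 1.98 (SE 0.108, adjusted p = 3.12e-05) is 3.95-fold.

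DKK1, the LRP5 and LRP6 inhibitor whose promoter with TCF/LEF cores is printed above, went down. It had 14.20, 14.10 and 14.46 on the drug arrays and 15.05, 14.81 and 15.17 on the control arrays. It fell by 0.76 on the log2 scale (SE 0.154, adjusted p = 0.00794) or 1.69-fold. DKK2, which can activate or inhibit LRP6 depending on its partners, was dim in both groups, at 7.05, 6.87 and 6.63 on the drug arrays and 4.29, 3.96 and 5.20 on the control arrays. Its rise of 2.36 (SE 0.311, adjusted p = 0.00111), 5.14-fold, became 2.27-fold with 50 added in place of 1. With the values as deposited the DKK2 difference was 4.91 and its call was lost (adjusted p = 0.0551), as it was with median centring (4.78, adjusted p = 0.0603). The deposited control intensities of that DKK2 probe were 1, -11 and 46, so the size of the rise rests on values close to 0. The other DKK2 probe, also dim, rose by 0.67 (adjusted p = 0.00826). DKK4, SFRP2, SFRP4 and SFRP5 were dim in both groups and did not pass, with differences from -0.23 (SFRP5) to 0.19 (DKK4 and SFRP2).

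RNF43 and ZNRF3, the ubiquitin ligases that clear Frizzleds from the membrane and are themselves known targets of β-catenin, did not pass. RNF43 had 7.94, 8.0 and 7.71 on the drug arrays and 8.05, 8.41 and 8.37 on the control arrays, a difference of -0.39 (adjusted p = 0.0937) that passed without control 2 (-0.51, adjusted p = 0.0478). ZNRF3 had 9.58, 9.71 and 9.20 on the drug arrays and 8.82, 9.07 and 9.38 on the control arrays, with overlapping groups and a difference of 0.41 (adjusted p = 0.181). The other ZNRF3 probe gave 0.04.

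**Figure D2:**
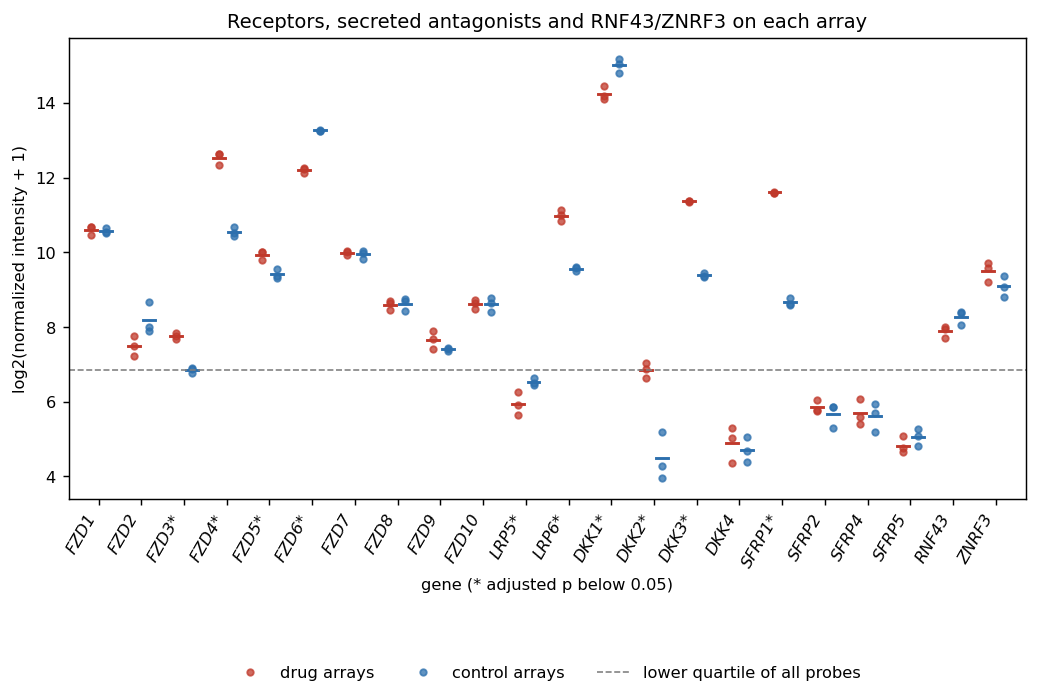
Log2(normalized intensity + 1) of the Frizzled and LRP receptors, the DKK and SFRP antagonists and RNF43 and ZNRF3 on each array, with drug arrays (red) left of control arrays (blue), a bar at each group mean and a dashed line at the lower quartile of all probes (6.86). FZD4, LRP6, DKK3 and SFRP1 show the widest separation upward among genes above that line in both groups, and FZD6 and DKK1 lie lower with the drug.

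Of the 11 intracellular members, 1 passed, where 35.1% of all genes did. DVL1, a Dishevelled protein that relays the receptor signal, had 11.31, 11.18 and 10.99 on the drug arrays and 9.98, 10.54 and 10.01 on the control arrays, a rise of 0.98 (SE 0.186, adjusted p = 0.00575). DVL2 differed by 0.20 with overlapping groups. DVL3 had 11.15, 11.67 and 11.72 on the drug arrays and 11.78, 12.03 and 11.89 on the control arrays, and its -0.39 did not pass (adjusted p = 0.16).

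CTNNB1, the β-catenin gene, had 15.17, 15.23 and 14.86 on the drug arrays and 15.27, 15.32 and 15.39 on the control arrays. The drug arrays all lay lower, yet the difference of -0.24 did not pass (adjusted p = 0.253) and its interval of -0.57 to 0.08 holds no 2-fold change. In the destruction complex, the scaffold AXIN1 averaged 11.78 ± 0.339 on the drug arrays and 12.01 ± 0.249 on the control arrays (SD, n = 3 each), a difference of -0.23 (interval -0.72 to 0.26). AXIN2, a scaffold that is also a widely used readout of β-catenin activity, had 7.37, 7.15 and 7.01 on the drug arrays and 6.56, 6.98 and 7.23 on the control arrays, a difference of 0.25 (adjusted p = 0.42, interval -0.21 to 0.72). APC, the tumour suppressor that binds β-catenin in this complex, had 9.77, 9.64 and 9.40 on the drug arrays and 8.90, 9.26 and 9.26 on the control arrays. Its groups did not overlap, and the 0.46 did not pass (adjusted p = 0.0677) but passed without drug 4 (0.57, adjusted p = 0.0496) and in 6 other alternatives of 15 run for it.

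None of the 4 TCF/LEF factors passed the limma test at the adjusted threshold. On the brightest probes the unadjusted p was below 0.05 for TCF7L2 alone (0.0334), and LEF1 had 0.0212 on its other probe. TCF7L2 had 10.91, 10.89 and 10.74 on the drug arrays and 11.37, 11.43 and 10.97 on the control arrays, a difference of -0.41 (adjusted p = 0.0926) that passed without control 6 (-0.55, adjusted p = 0.018). TCF7L1, often a repressor, differed by 0.08, and TCF7 by 0.14 on its brightest probe and -0.10 on its other. LEF1 gave -0.17 on its brightest probe and 0.38 on its other (adjusted p = 0.0636), so the LEF1 probes disagreed in sign and neither passed. Over all members, 34 of the 35 genes that did not pass had a 95% interval inside a 2-fold change in either direction, the exception being FZD2. This holds for the quantile-normalized values only. With the values as deposited, 4 uncalled members that were dim in both groups had differences beyond 2-fold, none past the test: DKK4 at 2.87, SFRP5 at 1.70, WNT1 at 1.28 and SFRP2 at 1.02. With median centring DKK4 had 2.73, SFRP5 1.57 and WNT1 1.15, so the data set no narrow limit on the change of these dim genes. The signs of SFRP5 and of the dim ligands WNT2B, WNT8A, WNT9A and WNT9B depend on the scaling.

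**Figure D3:**
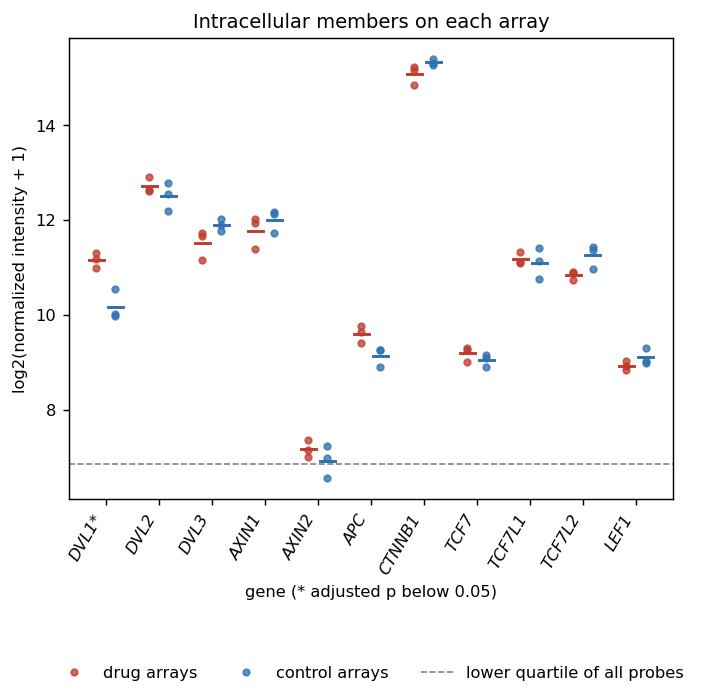
Log2(normalized intensity + 1) of the 11 intracellular members on each array, with drug arrays (red) left of control arrays (blue), a bar at each group mean and a dashed line at the lower quartile of all probes (6.86). DVL1 passed the test, while CTNNB1, DVL3, TCF7L2 and APC have separate groups with differences between -0.41 and 0.46 that did not pass.

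**Figure D4:**
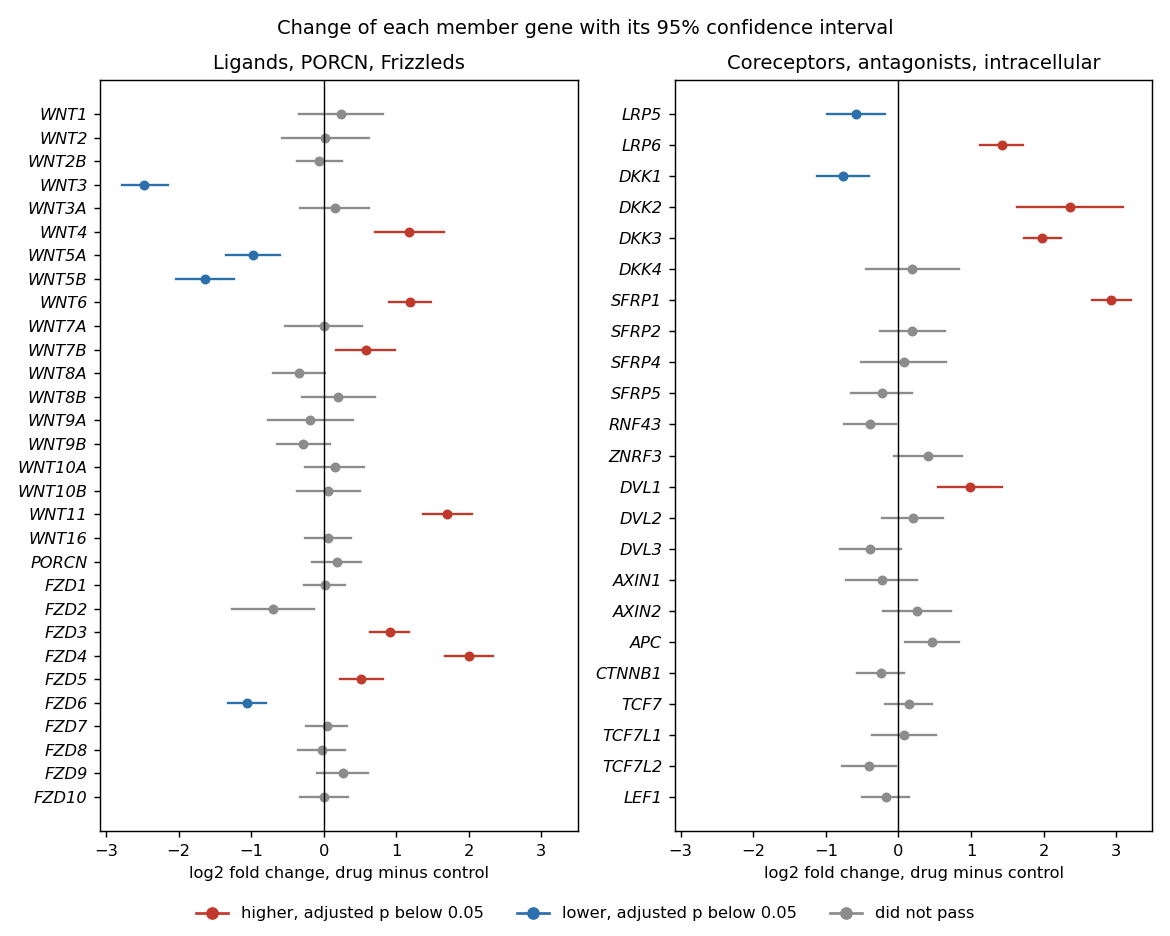
Log2 fold change, drug minus control, of the brightest probe of each of the 53 genes with its 95% confidence interval, in red where higher and in blue where lower at an adjusted p below 0.05, and in grey where the test was not passed. The changes run from -2.47 (WNT3) to 2.93 (SFRP1). The called genes are mostly ligands, receptors and antagonists, classes that also make up most of the 53, with DVL1 as the 1 called intracellular gene.

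The other genes of the pathway were read from 7 lists with 133 genes measured, of which 26 rose and 24 fell (37.6%, against 35.1% of all genes). In the list of R-spondins and their receptors 1 of 7 rose and 0 fell (14.3%, against 35.1% of all genes). LGR4, an R-spondin receptor, had 8.99, 9.12 and 9.59 on the drug arrays and 7.95, 7.81 and 8.0 on the control arrays. Its log2 fold change was 1.31 (SE 0.176, adjusted p = 0.00123). Among 15 genes of Wnt secretion, inactivation and other extracellular control, 1 rose and 2 fell, a share below the 35.1% of all genes. TRABD2B, a membrane metalloprotease that can inactivate Wnts by cleavage, averaged 7.10 on the drug arrays and 11.02 on the control arrays, and fell by 3.92 on the log2 scale (adjusted p = 1.44e-05), while its other probe fell by 0.58. TPBG, a membrane glycoprotein that inhibits canonical signalling in zebrafish, averaged 10.88 on the drug arrays and 12.62 on the control arrays and fell by 1.74, and KREMEN2, a receptor for DKK1, rose by 0.69. KREMEN1, named after its values were seen, had 2 of 4 probes that rose, by 1.08 and 1.67, while its brightest probe at 0.67 did not pass (adjusted p = 0.0777).

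Of 7 other Wnt receptors, 3 fell and 1 rose (57.1%, against 35.1% of all genes). ROR1, a receptor for WNT5A, had 9.53, 9.68 and 9.55 on the drug arrays and 10.50, 10.64 and 10.96 on the control arrays. It fell by 1.12 on the log2 scale (adjusted p = 0.00125), and its other 2 probes fell by 1.15 and 0.71. RYK, another receptor of non-canonical signalling, fell by 0.64 and on its other probe by 0.50. ADGRA2 and RECK, which together form a coreceptor for WNT7 ligands, passed in opposite directions, with ADGRA2 up by 0.62 (adjusted p = 0.0247) and RECK, named after its values were seen, down by 0.56 on the log2 scale (adjusted p = 0.0377). WNT5A, WNT5B, ROR1 and RYK were therefore all lower in the drug flasks on every probe measured, a grouping made after their values were seen. Of the same receptor list, ROR2 (-0.55, adjusted p = 0.222, overlapping groups), PTK7 (0.12) and MUSK (0.07) did not pass. WNT11, also known mainly from non-canonical signalling, rose by 1.70. Of the planar polarity and calcium genes below, 4 rose and 2 fell, a share under the 35.1% of all genes.

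Among 26 kinases, ligases and scaffolds around the destruction complex, 4 rose and 6 fell (38.5%, against 35.1% of all genes). DACT3, a Dishevelled-binding inhibitor, averaged 7.31 on the drug arrays and 5.16, a dim level, on the control arrays and rose by 2.15 (adjusted p = 0.000609), a 4.43-fold rise that became 2.44-fold with 50 added in place of 1, and APC2, a neural relative of APC, rose by 1.48. RNF146, the ligase that directs tankyrase-modified AXIN to degradation, averaged 7.04 on the drug arrays and 8.38 on the control arrays and fell by 1.34. Of 19 coactivators and corepressors of β-catenin, 3 rose and 7 fell (52.6%, against 35.1% of all genes). PYGO1, a coactivator bound through BCL9, averaged 6.80, a dim level, on the drug arrays and 8.42 on the control arrays and fell by 1.63. The corepressor CTBP2 fell by 1.62, with 1 of its other 2 probes not past the test (0.10), and TLE5, a short member of the Groucho family, fell by 1.28. Of 24 genes of the planar polarity and calcium branches, 4 rose and 2 fell, a share below the 35.1% of all genes. CELSR3 and CELSR2, seven-pass cadherins of planar polarity, rose by 2.25 and 1.02 and the kinase CAMK2G by 0.64.

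Of 35 genes reported elsewhere as β-catenin targets, 12 rose and 4 fell, 45.7% of the list against 35.1% of all genes, and the list median was -0.034. EPHB3, an ephrin receptor, had 10.76, 10.71 and 10.75 on the drug arrays and 7.10, 7.34 and 7.51 on the control arrays, a rise of 3.42 (adjusted p = 1.44e-05). FOSL1, a component of AP-1, averaged 8.17 on the drug arrays and 10.93 on the control arrays and fell by 2.76, and TNFRSF19, a TNF receptor family member, averaged 11.88 on the drug arrays and 9.32 on the control arrays and rose by 2.56. CCND1, cyclin D1, and MYC, both named after their values were seen, gave -2.34 (adjusted p = 0.000116) and -0.05 (adjusted p = 0.907). Many of these genes are controlled by other pathways too, and the list's members moved in both directions.

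**Figure D5:**
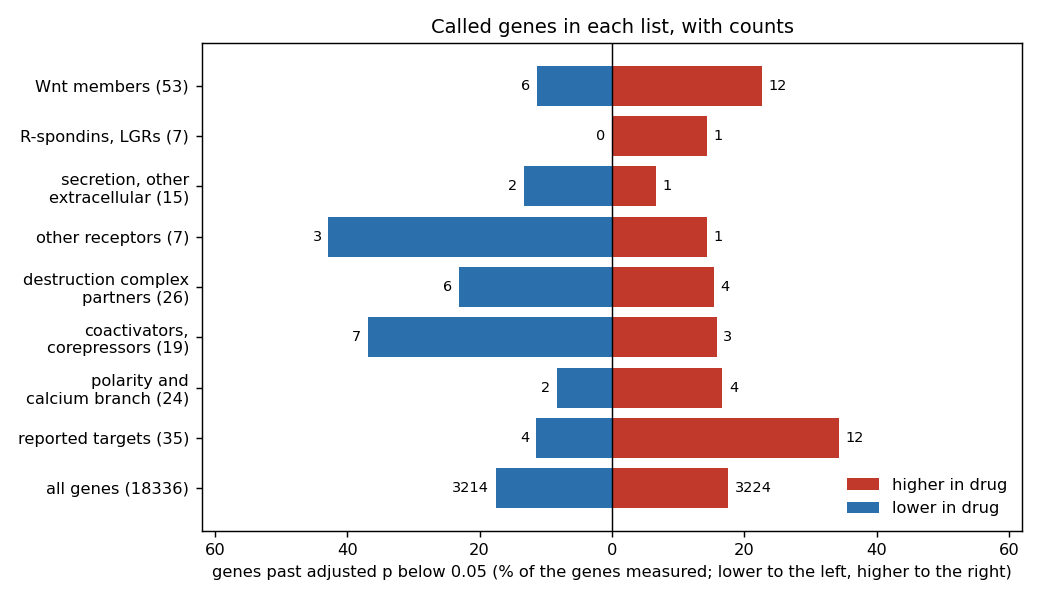
Percent of the genes in each list that passed an adjusted p below 0.05, higher in the drug flasks to the right and lower to the left, with the number of genes beside each bar and the number measured in brackets. The Wnt members have 12 higher and 6 lower of 53, and all genes have 3224 higher and 3214 lower of 18336.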

How the data were processed

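RNA of 6 flasks was measured on single-colour Phalanx OneArray arrays. Per the labels' protocols, Trizol extracts were amplified and coupled to the dye Cy5. The deposited values are linear intensities. The background correction and scaling behind them are not stated by the authors in the labels or headers, and values below 0 (462 on control 2, 968 on control 5 and 1 on drug 4) show that a background was subtracted or shifted. Since medians of the arrays spanned 0.337 log2 units, intensities were quantile normalized, floored at 0, raised by 1 and log2 transformed. Drug was compared with control by limma 3.58.1 in R 4.3.3 (lmFit and eBayes, two-sided), with the Benjamini-Hochberg adjustment over all 31741 probes. The fit was tested on simulated data. The probe with the highest mean over the 6 arrays stood for its gene.

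Probes were named from the platform annotation (24740 with 1 gene, 977 with several, 6024 with none), with older symbols updated through RefSeq. The labels describe separate flasks of 1 line, so the p-values measure the spread between flasks. Members, lists and motifs were chosen with earlier results of these data known. All called members were named with their values on each array, and from each other list up to 3 called genes with the largest change. The alternatives were the values as deposited, median centring, 16 or 50 added, filters on dim probes, an intensity trend, a minimum change, array weights, leaving out each array and, for the counts of members only, other probe rules.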

Additional observations from a re-analysis of the deposited data

How the results depend on the processing

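Of the 18 called members, 11 kept their call and direction under every alternative run on their brightest probe. These were 15 changes of scaling, constant, filter, test or arrays, but 14 for WNT3, WNT6, WNT11 and FZD3, which the filter at the median removed. The other 7 lost the call in at least 1: WNT5A, DKK1 and DVL1 only against a minimum log2 change of 0.5, and WNT7B, FZD5, LRP5 and DKK2 as given above. Of the 35 uncalled members, 5 passed in at least 1 alternative (FZD2, RNF43, ZNRF3, APC and TCF7L2), and no called member changed sign. Taking the mean of a gene's probes, or the probe with the smallest p, was run on the counts only and left 12 members higher and 6 lower, so it does not bear on single genes such as WNT4, whose probes differed. Against a minimum log2 change of 0.5, 3 members were lower in place of 6, 27 genes of the other pathway lists passed in place of 50, and 4217 probes in place of 10012, a stricter test by construction. The members' median log2 fold change of 0.071 became 0.303 with the values as deposited and 0.173 with median centring, settings that moved the median of all probes by 0.239 and 0.108, and it ran from -0.009 (without control 2) to 0.157 (without control 6). The counts of members that rose ran from 8 (probes above the median only, a filter that removed risers such as WNT11) to 14 (array weights). No background level per spot was used, so a change between 2 dim means is the least certain. No paired analysis was possible because the groups share no replicate number.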
